A study of Homo sapiens with 6 samples.

Results

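The subunit genes of complex III, complex IV and ATP synthase, the last enzymes of oxidative phosphorylation, were followed in HK-2 cells treated with cisplatin. The 34 genes were taken by symbol from the 18239 genes with a probe set naming 1 gene, and each gene was represented by its brightest probe set over the 6 arrays. They comprised 8 genes of complex III, 11 of complex IV and 15 of ATP synthase, and all 34 were measured. HK-2 is an immortalised line of human proximal tubule epithelium, and cisplatin is a platinum drug that binds DNA. Cells received 50 μM cisplatin for 6 h or for 24 h and were set against untreated control cells, with 2 arrays in each of the 3 groups. The labels give no culture time for the control cells, so cisplatin and time in culture cannot be told apart.

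Complex III passes electrons to cytochrome c, complex IV hands them to oxygen, and both pump protons across the inner mitochondrial membrane. ATP synthase lets the protons flow back and makes ATP from ADP and phosphate. The proximal tubule depends on this pathway for the energy of its transport. Each enzyme is built from many different proteins, most of them encoded in the nucleus. The mitochondrially encoded subunits were not analysed here.

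The values were log2 signals from a 3′ expression array, normalised by robust multi-array average (RMA), so each value depends on the rest of its array. Replicates correlated at r = 0.996 to 0.998 across genes, and arrays of different groups at 0.96 to 0.985. The labels call the arrays biological replicates and say no more, so any p-value here covers only the spread among these 6 arrays, which may be technical. The keratins KRT8, KRT18 and KRT19 and the renal factor PAX8 were bright, while the transport genes AQP1 (3.35 to 3.77), LRP2 (3.33 to 3.73) and SLC22A6 (3.44 to 3.91) lay low on all arrays. The difference between the 3′ and 5′ beta-actin probe sets, a sign of RNA quality, was 2.07 and 1.11 on the control arrays, 2.02 and 1.53 at 6 h, and 1.97 and 2.83 at 24 h. The summed linear signal of 12 markers of other cell types was 377 and 343 in control cells, 399 and 408 at 6 h, and 562 and 599 at 24 h. Of these markers 11 stayed below 5.5 on the log2 scale in each group, and 4 of 12 (33.3%, near the 31.2% of all genes) passed as higher at 24 h, with CD68 at a log2 fold change of 0.97. The summed linear signal of 16 epithelial and proximal tubule markers was 12566 and 12814 in control cells, 9812 and 10006 at 6 h, and 7898 and 7928 at 24 h, with 2 higher (12.5%) and 5 lower (31.2%) at 24 h, against 31.2% and 23.0% of all genes, among them KRT19 and PAX8 at −2.12 and −1.88. In each group 10 of these 16 markers lay below 5.5 on the log2 scale on both arrays, so the sum comes mostly from the few bright ones. The part of these measures in the results was not tested. In whole cultures fewer cells of a kind and less RNA per cell cannot be told apart.

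At 24 h, the nuclear genes for most complex III and IV subunits were higher than in control cells relative to the array as a whole, while ATP synthase genes went both ways. Of the 34 genes, 19 passed as higher and 3 as lower, with limma's moderated test and a Benjamini-Hochberg adjusted p below 0.05 over all genes. Higher genes were 55.9% of the 34, against 31.2% of all genes, and lower genes 8.82%, against 23.0%. The median log2 fold change was 0.28 (range −0.75 to 0.73) for the 34 genes and 0.10 for all genes. Complex III had 7 genes higher and 0 lower of 8 (median 0.40), and complex IV 9 higher and 1 lower of 11 (median 0.38). ATP synthase had 3 higher and 2 lower of 15 (median 0.11). These directions hold for the deposited scale and for scaling to housekeeping genes, most of which themselves changed at 24 h. The complex III and IV medians fall below 0 when the arrays are scaled to the spike-in controls, as given further on.

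**Figure D1:**
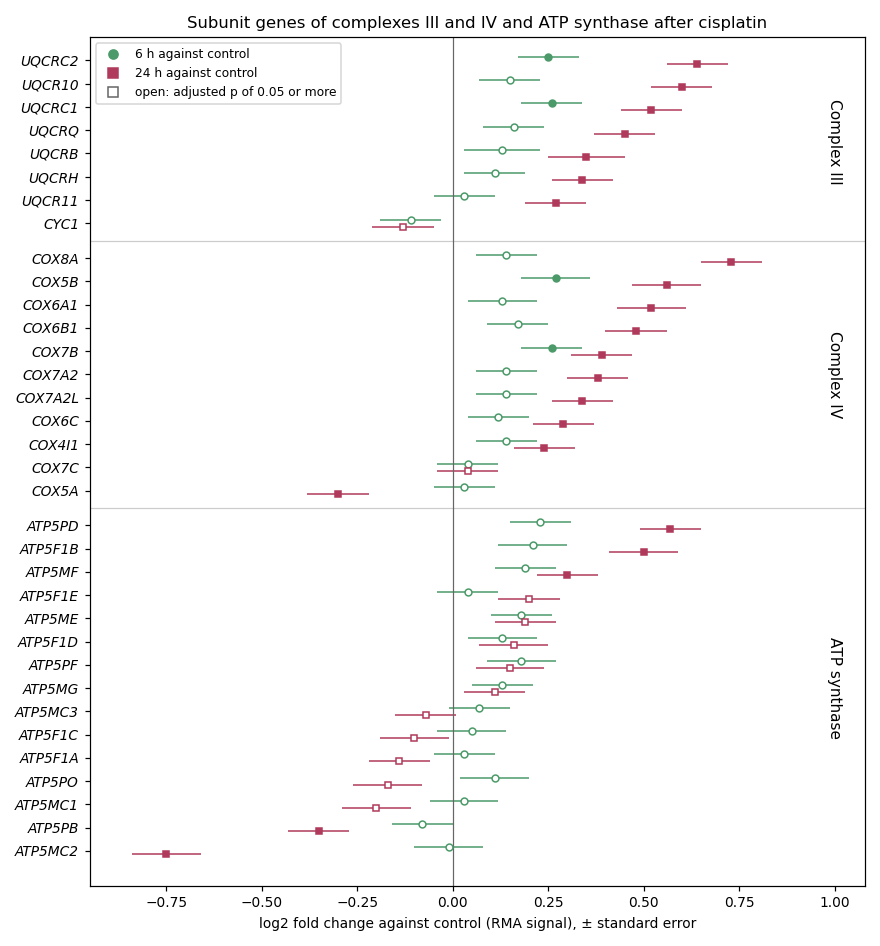
Log2 fold change against control (horizontal axis) of the 34 subunit genes by complex, with standard errors from limma, at 6 h (circles) and 24 h (squares), filled where the adjusted p was below 0.05. On the deposited scale the 24 h values of complexes III and IV lie right of 0 except for CYC1 and COX5A, and those of ATP synthase lie on both sides.

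The subunit genes are short, and short genes had their own share of calls. Of the 10439 genes no longer than the longest subunit gene, 40.3% were higher and 11.7% lower at 24 h. Of the 1989 genes at least as bright as the dimmest subunit gene, 34.0% were higher and 31.9% lower. The median gene span was 8.17 kb for the 34 genes and 25.7 kb for all genes. Among the 1401 genes that met both limits, 41.5% were higher and 21.6% lower at 24 h, with a median log2 fold change of 0.11. Against these genes, the 34 had a higher share of rises (55.9%) and a lower share of falls (8.82%), and ATP synthase had the same median, 0.11.

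In complex III, the core proteins UQCRC1 and UQCRC2, which face the matrix and resemble processing peptidases, rose in steps. UQCRC2 had log2 signals of 8.82 and 8.82 in control cells, 9.10 and 9.04 at 6 h, and 9.47 and 9.45 at 24 h. The groups did not overlap at any time, and its 24 h log2 fold change of 0.64 (standard error 0.08, limma adjusted p = 0.00016) was the largest of complex III. UQCRC1 had 10.03 and 9.97 in control cells, 10.23 and 10.29 at 6 h, and 10.54 and 10.50 at 24 h, with log2 fold changes of 0.26 at 6 h (standard error 0.08, limma adjusted p = 0.0349) and 0.52 at 24 h. All 6 arrays of UQCRC1 were again in the order of treatment time, although its 2 dimmer probe sets had 24 h log2 fold changes of 0.02 and −0.25 that did not pass.

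The small supernumerary subunits of complex III also passed as higher at 24 h. UQCR10, which lies beside cytochrome c1, had log2 signals of 11.33 and 11.23 in control cells, 11.46 and 11.39 at 6 h, and 11.85 and 11.91 at 24 h, a 24 h log2 fold change of 0.60. The others had 24 h log2 fold changes of 0.45 for UQCRQ, 0.35 for UQCRB, 0.34 for the hinge protein UQCRH, which binds cytochrome c1, and 0.27 for UQCR11. UQCRB, a ubiquinone-binding subunit, had 4 of 4 probe sets higher, from 0.35 for the brightest to 1.75 for a dim one (3.99 and 4.18 in control cells). UQCR11 had a second probe set that passed the other way. It read 7.50 and 7.52 in control cells, 6.79 and 6.83 at 6 h, and 6.58 and 6.74 at 24 h, a 24 h log2 fold change of −0.85 opposite to the brighter one.

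CYC1, cytochrome c1, the heme subunit that gives electrons to cytochrome c, was the 1 complex III gene that did not pass at 24 h. Its log2 signals were 10.62 and 10.58 in control cells, 10.46 and 10.53 at 6 h, and 10.52 and 10.42 at 24 h. The 24 h log2 fold change was −0.13 (standard error 0.08, limma adjusted p = 0.203), and its other probe sets had 0.01 and 0.03. CYCS, the mobile cytochrome c itself, had 0.06 at 24 h and did not pass.

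In complex IV, cytochrome c oxidase, COX8A had the largest change. This small membrane subunit had log2 signals of 11.21 and 11.06 in control cells, 11.29 and 11.26 at 6 h, and 11.85 and 11.87 at 24 h. The 24 h arrays stood well above the other 4, while the 6 h arrays lay just above control: the log2 fold change was 0.73 at 24 h (standard error 0.08, limma adjusted p = 0.00013), a 1.66-fold rise, and 0.14 at 6 h, which did not pass. Its second probe set had 0.71 at 24 h.

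COX5B, a zinc-binding subunit on the matrix side, had log2 signals of 10.66 and 10.52 in control cells, 10.88 and 10.85 at 6 h, and 11.10 and 11.20 at 24 h. The 3 groups did not overlap, and the log2 fold changes were 0.27 at 6 h (standard error 0.09, limma adjusted p = 0.0441) and 0.56 at 24 h. COX5A, its partner subunit on the matrix side, went the other way. It had 11.19 and 11.06 in control cells, 11.14 and 11.16 at 6 h, and 10.80 and 10.84 at 24 h, so the 24 h arrays were below the other 4. The 24 h log2 fold change was −0.30 (standard error 0.08, limma adjusted p = 0.0129), and without the first control array it was −0.24 with an adjusted p of 0.0693. COX5A had 1 probe set.

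The remaining complex IV genes were higher at 24 h except 1. The log2 fold changes were 0.52 for COX6A1 and 0.48 for COX6B1, the subunit joining the monomers of the dimer, and 0.24 to 0.39 for COX4I1, COX6C, COX7A2, COX7A2L and COX7B. COX4I1 is the subunit through which ATP is known to slow the enzyme, and COX7A2L is known for joining complexes III and IV into supercomplexes. COX7A2 had 5 of 5 probe sets higher at 24 h, from 0.38 for the brightest to 0.93 for a dim one (4.69 and 4.75 in control cells). COX7C had 12.47 and 12.45 in control cells, 12.52 and 12.48 at 6 h, and 12.48 and 12.51 at 24 h, a 24 h log2 fold change of 0.04 that did not pass.

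**Figure D2:**
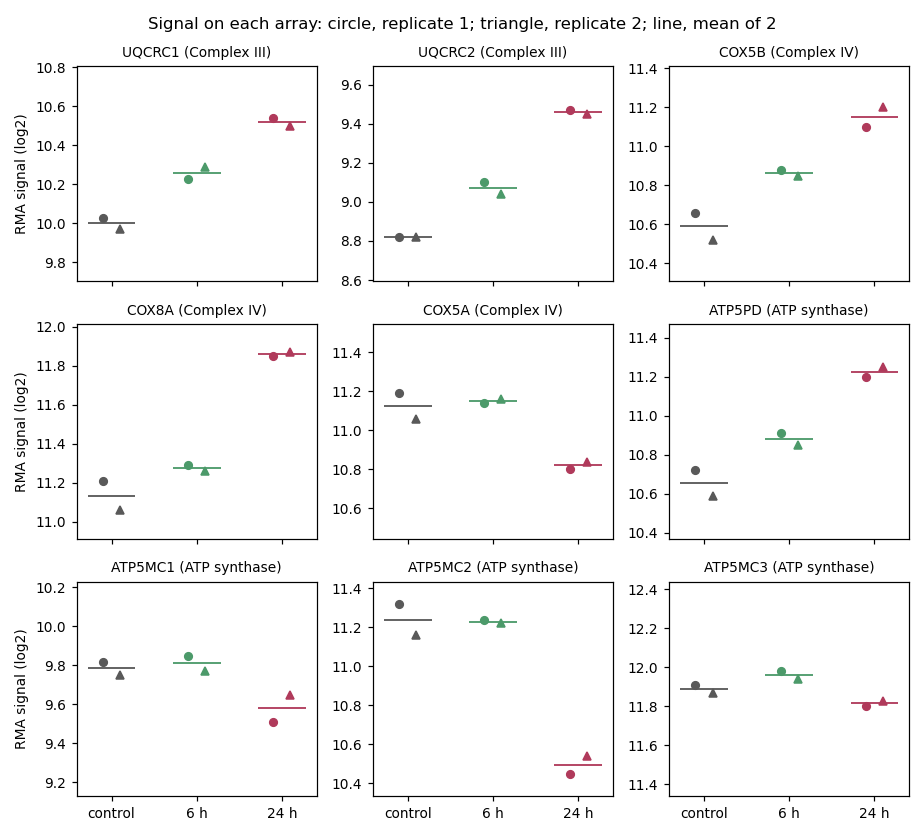
RMA log2 signal (vertical axis, each panel spanning 1.1 units) on each array in control cells and after 6 h and 24 h of cisplatin for 9 genes, with the mean of the 2 arrays as a line. On this scale UQCRC1, UQCRC2 and COX5B step up at both times, COX8A and ATP5PD pass as higher at 24 h, and COX5A and ATP5MC2 drop at 24 h.

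ATP synthase has a catalytic F1 head, a rotating ring of c subunits, a peripheral stalk that holds the head still, and small membrane subunits that shape the dimer. Of the 5 measured genes of the F1 head and central stalk, 1 passed as higher at 24 h. ATP5F1B, the catalytic beta subunit, had log2 signals of 11.71 and 11.84 in control cells, a mean of 11.98 at 6 h, and 12.35 and 12.20 at 24 h, a log2 fold change of 0.50 at 24 h with no overlap between 24 h and control. Its partner in the head, the alpha subunit ATP5F1A, had 11.81 and 11.90 in control cells, 11.89 and 11.88 at 6 h, and 11.67 and 11.75 at 24 h, a log2 fold change of −0.14 that did not pass. The central stalk genes had −0.10 for ATP5F1C (gamma), 0.16 for ATP5F1D (delta) and 0.20 for ATP5F1E (epsilon), and 0 of these 3 passed.

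The c ring is encoded by ATP5MC1, ATP5MC2 and ATP5MC3, which differ in their import signals and give the same mature protein. ATP5MC2 had log2 signals of 11.32 and 11.16 in control cells, 11.24 and 11.22 at 6 h, and 10.45 and 10.54 at 24 h. The 6 h arrays lay within the control range and both 24 h arrays far below it: the 24 h log2 fold change of −0.75 (standard error 0.09, limma adjusted p = 0.000151), to 0.60 times the control signal, was the largest fall among the 34 genes. ATP5MC1 had 9.82 and 9.75 in control cells, 9.85 and 9.77 at 6 h, and 9.51 and 9.65 at 24 h, a log2 fold change of −0.20 (limma adjusted p = 0.0828). Its 24 h arrays were also below the others, but the difference did not pass. ATP5MC3 had 11.91 and 11.87 in control cells, 11.98 and 11.94 at 6 h, and 11.80 and 11.83 at 24 h, a log2 fold change of −0.07 that did not pass. Among its dimmer probe sets, 1 read 7.00 and 7.10 in control cells, 7.30 and 7.30 at 6 h, and 5.30 and 5.98 at 24 h, a log2 fold change of −1.41, and another had −0.25, both with adjusted p below 0.05 over all probe sets. Thus all 3 c subunit genes had 24 h values below 0, with 1 of 3 passing.

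The peripheral stalk was split. ATP5PD, subunit d, had log2 signals of 10.72 and 10.59 in control cells, 10.91 and 10.85 at 6 h, and 11.20 and 11.25 at 24 h. The 3 groups did not overlap, and the 24 h log2 fold change of 0.57 (standard error 0.08, limma adjusted p = 0.000524) was the largest rise of ATP synthase, read by 1 probe set marked as shared with other transcripts. ATP5PB, subunit b, the stalk's anchor in the membrane, had 11.98 and 11.87 in control cells, 11.87 and 11.82 at 6 h, and 11.58 and 11.58 at 24 h. Its log2 fold change was −0.35 at 24 h (limma adjusted p = 0.00670), and 4 of 4 probe sets were lower, from −0.66 to −0.29. ATP5PO, the subunit that ties the stalk to the head, had −0.17 and ATP5PF, factor F6, had 0.15, and neither passed. A dimmer probe set of ATP5PO had −0.27 with an adjusted p below 0.05 over all probe sets.

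Of the membrane subunits, ATP5MF (subunit f) passed as higher at 24 h with a log2 fold change of 0.30, and its 5 probe sets lay between 0.19 and 0.36. ATP5ME (subunit e) had 0.19 and ATP5MG (subunit g) 0.11, and neither passed, although the second probe set of ATP5ME had 0.28 with an adjusted p below 0.05 over all probe sets. The 2 dimmer probe sets of ATP5MG had −0.36 and −0.33 at 24 h, both with adjusted p below 0.05 over all probe sets, so its direction depended on the probe set.

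At 6 h the changes were small. Of the 34 genes, 4 passed as higher and 0 as lower: UQCRC1, UQCRC2, COX5B and COX7B, with log2 fold changes from 0.25 to 0.27. Higher genes were 11.8% of the 34, against 14.0% of all genes, and 0 were lower, against 15.8% of all genes. Of the 1401 genes within the same limits of span and signal, 24.0% were higher and 9.35% lower at 6 h. The 6 h values were above 0 in 31 of 34 genes, with a median of 0.13 against 0.03 for all genes, and ATP synthase had no gene past the threshold (0 of 15). In most of these genes the first control array was also brighter than the second (10.66 and 10.52 for COX5B), though not in ATP5F1B (11.71 and 11.84). The genes thus moved together between untreated arrays, and the 31 are not separate observations. Without the first control array the 6 h median was 0.16, and without the second it was 0.09. The number of calls at 6 h depended on the setting. It was 0 with a block on replicate number or with adjustment over all probe sets, and 18 with a robust fit with a trend. When any 1 array was left out, the 6 h log2 fold change was 0.23 to 0.30 for UQCRC1 and 0.20 to 0.35 for COX5B. A fit with 1 array in a group has less power, so calls lost there do not show that a single array made them. The 6 h median also fell to −0.24 when scaled to all spike-ins.

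Between the treatment times, with 24 h set against 6 h, 12 genes passed as higher and 4 as lower. These were 35.3% and 11.8% of the 34, against 21.2% and 16.7% of all genes. The largest differences were 0.58 for COX8A (limma adjusted p = 0.00103), 0.45 for UQCR10 and −0.73 for ATP5MC2 (limma adjusted p = 0.000457). ATP5PO, by the probe set standing for the gene, passed in this comparison and not against control, with 11.03 and 10.97 at 6 h and 10.65 and 10.81 at 24 h, a log2 difference of −0.28. The 3 comparisons share arrays, so their values are given side by side and not as independent evidence. Without 1 treated array the count of higher genes ranged from 3 (second 6 h array left out) and 5 (first 6 h or second 24 h array) to 8 (first 24 h array), and that of lower genes was 1 without either 6 h array or the first 24 h array.

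The study's own threshold, an unadjusted p below 0.01 with at least a doubling or halving of signal, took 0 of the 34 genes at either time. It took 4.93% of all genes at 6 h and 12.1% at 24 h. The changes of the subunit genes were smaller than that fold, from 0.60 to 1.66 times control at 24 h.

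The 34 genes had 81 probe sets. Of the 24 genes with several, 19 had all of them on the same side of 0 at 24 h. Among the 34 representing probe sets, 20 were marked by name as shared with other transcripts, which can include copies of these genes elsewhere in the genome. With only probe sets not so marked, 29 genes were left, 15 higher and 3 lower at 24 h. Complexes III and IV then had 15 higher and 1 lower of 19, while ATP synthase had 0 higher and 2 lower of 10. Over all genes with such probe sets, 4917 were higher and 3477 lower of 16777, so the share of falls in ATP synthase was near that of all genes. ATP5PD and ATP5F1B have marked probe sets only, as do ATP5F1E, ATP5MC1 and ATP5MG, and were left out. ATP5MF stayed in, but its 1 unmarked probe set is dim and had 0.27, which did not pass. With the mean of all probe sets of each gene, ATP synthase had 5 higher and 4 lower of 15, and its median turned to −0.18. All genes then had 6114 higher and 3866 lower of 18239.

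**Figure D3:**
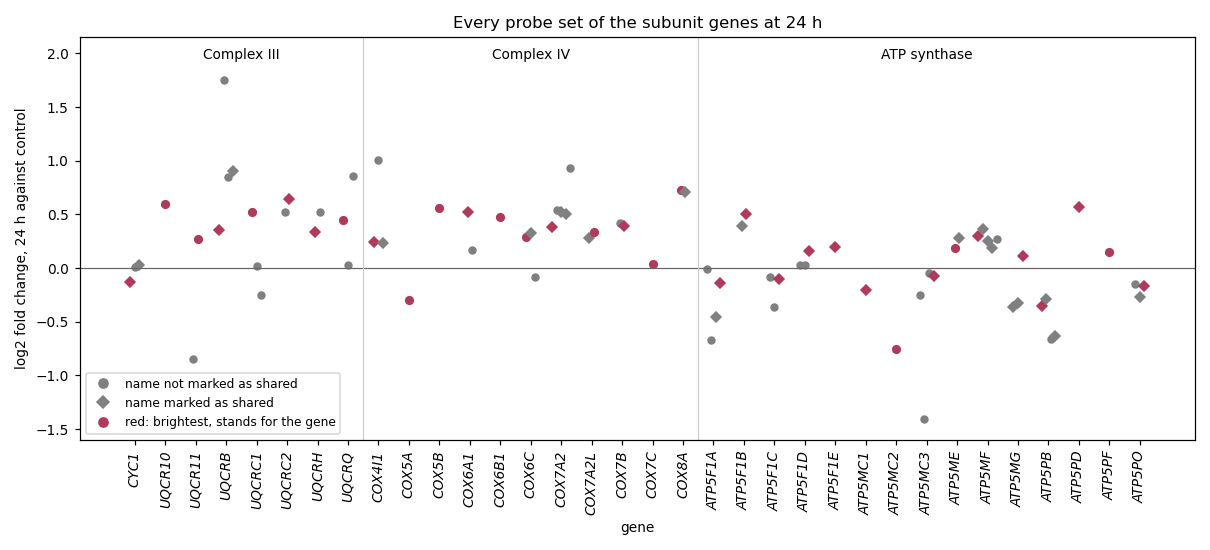
Log2 fold change at 24 h against control (vertical axis) of all 81 probe sets by gene (horizontal axis), with the probe set standing for the gene in red and diamonds for names marked as shared. On the deposited scale most genes have their probe sets on 1 side of 0. UQCRC1, UQCR11, CYC1, COX6C and ATP5MG have dimmer ones on the other side, which passed for UQCR11 and ATP5MG only.

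The direction against control depended on what the arrays were scaled to. The signal of 36 spike-in probe sets, meant to read RNAs added in fixed amounts, was higher than in control cells by 0.371 at 6 h and 0.885 at 24 h. That of the 9 hybridization controls among them was higher by 0.0975 and 0.41. On the control arrays the mean log2 signal was 5.35 for the 36 and 9.4 for these 9, so the others averaged below 5.35. Whether the shift of such dim probe sets follows the RNA added was not tested. Scaled to all spike-ins, 0 subunit genes were higher and 32 lower at 24 h, with a median of −0.60, against −0.78 for all genes. Scaled to the hybridization controls, 1 was higher and 11 lower (median −0.13, against −0.31 for all genes). Scaled to 9 housekeeping genes, 17 were higher and 4 lower (median 0.22, against 0.04 for all genes). These 9 genes were not stable themselves. On the deposited scale 4 of them passed as higher (44.4%) and 3 as lower (33.3%) at 24 h, with log2 fold changes from −0.62 to 0.60. A scaling moves all genes of an array by the same amount, so the distance to the all-gene median stays: complexes III and IV lay 0.28 above it and ATP synthase 0.01 above it on the deposited scale. At 24 h 16 of the 19 genes of complexes III and IV and 8 of the 15 of ATP synthase lay above the all-gene median, in each of the 4 scalings.

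**Figure D4:**
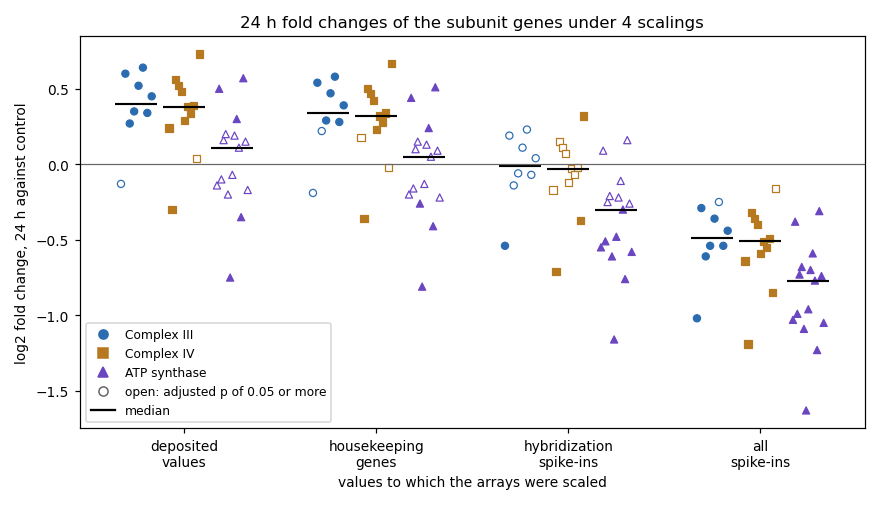
Log2 fold change at 24 h against control (vertical axis) of the 34 genes by complex under 4 scalings of the arrays (horizontal axis), filled where the adjusted p was below 0.05, with the median as a bar. The whole set moves from a median of 0.28 with the deposited values to −0.60 with all spike-ins, and ATP synthase stays the lowest of the 3.

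Genes that build these enzymes or control them were looked at as other members of the pathway, on the deposited scale. Of 6 complex III assembly factors, 2 passed as higher (33.3%) and 4 as lower (66.7%) at 24 h, against 31.2% and 23.0% of all genes, among them UQCC3 at 0.77 and BCS1L, which inserts the iron-sulphur protein, at 0.63, and LYRM7 at −0.80 and TTC19 at −0.59. UQCC2 also had −0.59, with 3 of its 7 probe sets on that side. Of 22 complex IV assembly factors, 8 were higher (36.4%) and 6 lower (27.3%), shares near the 31.2% and 23.0% of all genes, led by COA5 at 1.27 (1 of its 2 probe sets on that side) and the copper chaperone SCO2 at 1.16, and by FASTKD2 at −0.89 and the heme enzyme COX10 at −0.78. Of 5 ATP synthase assembly factors, 4 were higher (80.0%) and 0 lower at both times, against 14.0% of all genes higher at 6 h and 31.2% at 24 h, with ATPAF2 at 1.11 and ATPAF1 at 0.76 at 24 h. These 2 chaperones hold the alpha and beta subunits before the F1 head is put together. On the side of the call lay 2 of 4 probe sets of ATPAF2 at 6 h and 4 of 4 at 24 h. For TMEM70 it was 1 of 2, and for ATPAF1 4 of 5, at both times. FMC1, which did not pass, lay low on all arrays (2.65 to 2.94).

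Among 9 other subunits and tissue isoforms, 3 were higher (33.3%, near the 31.2% of all genes) and 0 lower at 24 h. COX8C had 0.94 (log2 signals of 3.69 and 3.44 at 24 h, against 2.59 and 2.65 in control cells, both low on the array) and ATP5MJ had 0.44. Of 5 carriers and channels for ATP and phosphate, 4 were higher (80.0%, against 31.2% of all genes) and 1 lower. SLC25A4, an ADP/ATP carrier, had 7.91 and 7.87 in control cells, 9.16 and 9.21 at 6 h, and 9.17 and 9.22 at 24 h, log2 fold changes of 1.30 and 1.31. SLC25A5, the isoform of that carrier usual in dividing cells, fell by 0.27 at 24 h, and the outer membrane channel VDAC2 rose by 0.37. Of 3 complex II genes 0 passed, and of 36 complex I genes 19 were higher (52.8%) and 1 lower (2.78%), against the same 31.2% and 23.0%.

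Among 12 regulators of mitochondrial gene expression, more passed as lower than as higher, with 2 rises against 7 falls at 6 h and 1 rise against 5 falls at 24 h. Lower genes were 58.3% of them at 6 h and 41.7% at 24 h, against the 15.8% and 23.0% of all genes. TFB1M, which methylates mitochondrial ribosomal RNA, had 7.17 and 7.41 in control cells, 6.42 and 6.41 at 6 h, and 5.51 and 5.06 at 24 h, a 24 h log2 fold change of −2.00. GABPB1, a subunit of the ETS family factor that acts on many nuclear genes of the respiratory chain, had −1.43, and the DNA-binding subunit GABPA had 0.53 at 6 h and 0.05 at 24 h. NRF1, another activator of these genes, had −1.19, with 3 of its 4 probe sets on that side. Its signals were dim, 5.42 and 5.09 in control cells and 3.89 and 4.24 at 24 h. YY1 had −0.78, while TFAM, which packs mitochondrial DNA and takes part in its transcription, was higher by 0.68.

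**Figure D5:**
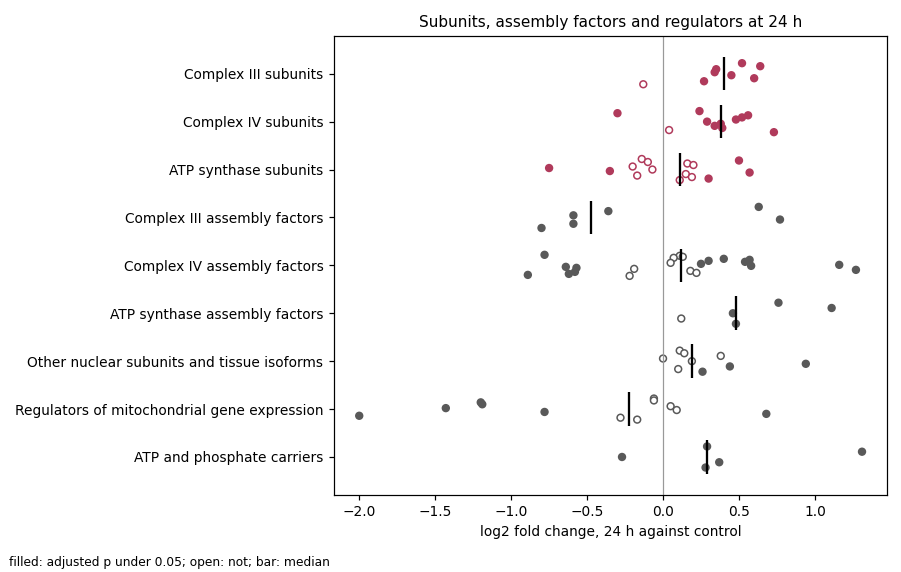
Log2 fold change at 24 h against control (horizontal axis) of the subunit genes and of 6 lists of assembly factors, other subunits, regulators and carriers (vertical axis), filled where the adjusted p was below 0.05, with the median as a bar. On the deposited scale 4 of the 12 regulators lie below −1, and the subunits lie within 0.75 of 0.

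Because 3 of these regulators bind short DNA motifs, the promoters of the subunit genes were searched for the letters GCATGCG (NRF1), CCGGAAG (ETS family, to which GABPA belongs) and ATGGCGG (YY1), on both strands. Promoter windows of 300 bases, with 250 before and 50 after the start, were given by RefSeq (GRCh38.p14) for 27 of the 34 genes, in 33 windows. CCGGAAG was in 42.4% of these windows and in 10.3% of all 35116 windows, GCATGCG in 21.2% and 3.91%, and ATGGCGG in 15.2% and 5.55%. By gene, CCGGAAG was in 9 of the 15 genes that were higher at 24 h and in 0 of the 3 that were lower, and in 4 of the 9 that did not pass. GCATGCG was in 2 of 15, 1 of 3 and 3 of 9, and ATGGCGG in 3 of 15, 0 of 3 and 1 of 9. Over all 27305 genes with such a window, CCGGAAG was in 3321, GCATGCG in 1294 and ATGGCGG in 1819. With 3 lower genes, a link between a motif and the direction of change cannot be judged and was not tested. A match describes the letters only.

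The windows of the genes with the largest rise or fall in each complex, and of COX6A1, chosen because it holds all 3 motifs, are shown 5′ to 3′ on the gene's strand, with matches in capitals. COX8A, COX6A1 and UQCRC2 lie on the plus strand, and ATP5PD, ATP5MC2 and COX5A on the minus strand.
COX8A promoter window, chr11:63974370-63974669: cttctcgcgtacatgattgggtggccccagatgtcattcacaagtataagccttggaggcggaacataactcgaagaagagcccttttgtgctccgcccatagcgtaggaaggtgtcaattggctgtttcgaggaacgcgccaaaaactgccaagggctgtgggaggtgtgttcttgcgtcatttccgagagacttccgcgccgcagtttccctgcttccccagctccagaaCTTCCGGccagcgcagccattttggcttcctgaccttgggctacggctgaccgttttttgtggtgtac
COX6A1 promoter window, chr12:120437863-120438162: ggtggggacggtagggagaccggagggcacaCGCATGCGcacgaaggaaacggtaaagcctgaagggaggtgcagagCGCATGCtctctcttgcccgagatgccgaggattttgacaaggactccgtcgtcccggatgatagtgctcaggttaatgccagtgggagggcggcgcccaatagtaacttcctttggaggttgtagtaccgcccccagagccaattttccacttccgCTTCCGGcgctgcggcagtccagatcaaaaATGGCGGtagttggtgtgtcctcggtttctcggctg
ATP5PD promoter window, chr17:75046920-75047219: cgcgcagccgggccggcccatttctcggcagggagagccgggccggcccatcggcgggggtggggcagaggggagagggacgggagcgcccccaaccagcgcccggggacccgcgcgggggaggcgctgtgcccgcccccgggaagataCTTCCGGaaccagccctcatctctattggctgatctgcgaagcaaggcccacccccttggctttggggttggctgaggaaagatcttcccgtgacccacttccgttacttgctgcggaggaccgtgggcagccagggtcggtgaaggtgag
ATP5MC2 promoter window, chr12:53676034-53676333: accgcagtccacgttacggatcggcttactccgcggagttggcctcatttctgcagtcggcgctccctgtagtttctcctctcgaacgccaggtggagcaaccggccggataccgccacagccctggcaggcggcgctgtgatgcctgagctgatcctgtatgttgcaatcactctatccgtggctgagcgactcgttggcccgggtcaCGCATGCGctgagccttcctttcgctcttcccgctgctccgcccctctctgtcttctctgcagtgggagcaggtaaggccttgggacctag
COX5A promoter window, chr15:74938024-74938323: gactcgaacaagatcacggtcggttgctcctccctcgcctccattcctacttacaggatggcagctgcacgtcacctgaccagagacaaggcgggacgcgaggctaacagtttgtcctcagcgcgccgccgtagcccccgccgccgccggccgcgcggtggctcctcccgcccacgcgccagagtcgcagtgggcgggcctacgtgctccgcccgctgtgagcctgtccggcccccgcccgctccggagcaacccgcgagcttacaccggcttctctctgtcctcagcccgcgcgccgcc
UQCRC2 promoter window, chr16:21953111-21953410: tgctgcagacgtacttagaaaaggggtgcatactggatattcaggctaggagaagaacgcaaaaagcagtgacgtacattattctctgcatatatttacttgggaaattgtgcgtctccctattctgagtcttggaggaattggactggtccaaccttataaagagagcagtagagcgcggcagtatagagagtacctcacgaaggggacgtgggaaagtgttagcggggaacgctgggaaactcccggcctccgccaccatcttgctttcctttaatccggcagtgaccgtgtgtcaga
In COX8A the ETS letters, on the reverse strand, began 18 bases before the start, and in ATP5PD 101 bases before it. ATP5MC2 held GCATGCG within CGCATGCG, whose strands overlap, so it counts on both, 41 and 40 bases before the start. It has 3 windows in RefSeq, of which 2 hold the motif and 1 is shown. COX6A1 held NRF1 letters at 3 places including such an overlap, ETS letters 16 bases before the start and YY1 letters 14 bases after it. The windows of COX5A and UQCRC2, with changes in opposite directions, held none of the 3 motifs.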

How the data were processed

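Total RNA of HK-2 cells (control, 6 h and 24 h of 50 μM cisplatin, 2 arrays each) was hybridised to Affymetrix 3′ expression arrays. The deposited values are log2 signals made by the authors with RMA. The submitters' processing notes name Affymetrix Expression Console 1.1. Depth does not apply to arrays, and their number limits the precision. Of 49386 probe sets, 45253 named 1 gene in the platform annotation, 1327 several genes, 2713 none and 93 were controls; 45178 were matched by Entrez identifier to current symbols, leaving 18239 genes, each with its brightest probe set. All genes were fitted with limma 3.58.1 (R 4.3.3; lmFit and eBayes, 3 residual degrees of freedom) over the 3 groups, and p-values were adjusted by Benjamini-Hochberg over all genes. The script was tested on simulated data. Tables and plots used Python 3.11.15, numpy 2.4.6, pandas 2.3.3 and matplotlib 3.10.9.

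The members and lists were chosen with earlier results of these data known. Full statistics are given for the passing gene with the largest rise and the largest fall in each complex and comparison with control whose arrays do not overlap, and array values for the ATP5MC genes. Array values of other genes were added after their values were seen. Of other lists, up to 2 rises and 2 falls at 24 h are named by size, and regulators that bind the motifs searched were added. Alternatives were a block on replicate number, averaged probe sets, adjustment over all probe sets, a robust eBayes fit with a trend, fits on 2 groups alone, a floor of 5 on at least 2 arrays, 3 scalings, the study's threshold, an adjusted p below 0.01, leaving out each array, and probe sets not marked as shared. The test behind the study's p is not given in the sources used here.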

Additional observations from a re-analysis of the deposited data

Results flagged for a closer look

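The change against control differed between 24 h and 6 h, by the limma test of 24 h against 6 h with an adjusted p below 0.05, for 16 genes. The 24 h value minus the 6 h value was positive for 12 of them on the log2 scale: 0.26 for UQCRC1, 0.39 for UQCRC2, 0.29 for UQCRQ, 0.45 for UQCR10, 0.24 for UQCR11, 0.29 for COX5B, 0.39 for COX6A1, 0.31 for COX6B1, 0.24 for COX7A2, 0.58 for COX8A, 0.29 for ATP5F1B and 0.34 for ATP5PD. It was negative for 4, with −0.33 for COX5A, −0.73 for ATP5MC2, −0.27 for ATP5PB and −0.28 for ATP5PO. Groups of 2 arrays allow no search for single outlying samples.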

How the results depend on the processing

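The main limits are 2 arrays per group and values relative to each array. At 24 h the counts of 19 higher and 3 lower genes were 14 to 18 and 2 to 3 when 1 array was left out. At 6 h the 4 higher genes became 0 to 4, and 0 were lower each time. For 24 h against 6 h the 12 higher became 3 to 11 and the 4 lower 1 to 3.

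Scaled to all spike-ins, no rise was called in any comparison (0, 0 and 0 genes), while the falls called numbered 11 (6 h), 32 (24 h) and 21 (24 h against 6 h). Scaled to the hybridization controls there were 0 rises at 6 h, 1 rise and 11 falls at 24 h, and 0 rises and 14 falls between the times. Scaled to housekeeping genes (9 of the 12 listed were measured), 0 were higher at 6 h and 2 lower between the times. Under the scaling to all spike-ins, the log2 fold changes turned to −0.11 for UQCRC1 and −0.10 for COX5B at 6 h, and to −0.25 for UQCRC2, −0.16 for COX8A and −0.31 for ATP5PD at 24 h. The scalings shift every gene of an array alike, and over all genes the split at 24 h was 5685 higher and 4201 lower on the deposited scale, 593 and 16107 with all spike-ins, 1731 and 9832 with the hybridization controls, and 4647 and 4582 with housekeeping genes.

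The mean of all probe sets gave 9 higher and 1 lower at 6 h and 6 lower at 24 h. Adjusting over every probe set, which tests more features, gave 0 higher at 6 h, and 7 higher and 2 lower between the times. The trend and robust setting gave 18 higher at 6 h, 7 lower at 24 h, and 19 higher and 8 lower between the times. The floor on dim genes gave 7 higher at 6 h. The study's threshold gave 0 higher at 6 h, 0 higher and 0 lower at 24 h, and 0 and 0 between the times, and an adjusted p below 0.01 gave 0 higher at 6 h and 4 higher and 1 lower between the times. Probe sets not marked as shared, an alternative chosen after seeing the data, gave 5, 15 and 8 higher and 0, 3 and 4 lower in the 3 comparisons. Beyond what these settings change by construction, the cause was not tested.

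The labels do not say whether same-numbered arrays were handled together. Their deviations from the group means over all genes correlated at 0.0461, −0.0559 and −0.0584, which shows no strong common shift but cannot settle how they were handled. With the replicate block, 0 rises were called at 6 h, 18 rises and 3 falls at 24 h, and 9 rises and 3 falls between the times. ATP5MC2 stayed past the threshold and below 0 when any 1 array was left out (−0.83 to −0.66), as did ATP5PD (0.51 to 0.63), COX8A (0.65 to 0.80) and UQCRC2 (0.63 to 0.65) above 0. COX5A ranged from −0.37 to −0.24 and did not pass in 1 of 6, and at 6 h COX5B (0.20 to 0.35) and UQCRC1 (0.23 to 0.30) did not pass in 3 and 4 of 6.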
